A study of Mus musculus with 9 samples.

Results

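The 10 genes of mast cells and basophils named here were followed through 9 arrays of mouse regulatory T (Treg) cells lacking CBP, lacking p300 or lacking neither. They were matched by gene symbol in the platform's annotation, but the set was drawn up with earlier results of these data known, so it is not blind to them: Gata2, Kit, Fcer1a, Ms4a2, Mcpt8, Mcpt4, Cma1, Cpa3, Tpsb2 and Hdc. All 10 were among the 12393 genes tested, and 14 of the 22626 probe sets kept read them. Mast cells and basophils are granulocytes that bind IgE through the high-affinity receptor FcεRI and release histamine, proteases and lipid mediators when that receptor is cross-linked. Both arise from bone marrow progenitors under the transcription factor GATA2, mast cells with the help of the stem cell factor receptor KIT. Their proteases are made in the mast cell or basophil itself and stored in its granules, so the genes that encode them are used as markers of these cells.

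The CBP-deleted arrays came from fl-CBP/Foxp3cre mice, the p300-deleted arrays from fl-p300/Foxp3cre mice and the controls from mice given as Foxp3cre and also called wild type, all C57Bl/6, with 3 arrays per group. The controls therefore carry the Cre label too, and a difference that rests on the Cre allele cannot be told apart from one that rests on the deletion if they in fact lack it. Ages are not given in the sources used here. CBP and p300 are related acetyltransferases, and the Cre recombinase, driven from Foxp3, acts in cells that express Foxp3. Cells were separated with magnets as CD4+CD25+, which does not itself select for Foxp3. The replicates are called independent samples, with no statement on animals, so p-values measure the spread between these samples.

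Arrays of a group correlated with each other at 0.995 to 0.997 for CBP-deleted, 0.994 to 0.996 for p300-deleted and 0.990 to 0.994 for control, against 0.987 to 0.994 between groups. The T cell genes Cd3d, Cd3e and Cd4 and the CD25 gene Il2ra were bright on every array. Foxp3, the defining Treg gene, read 2.87 ± 0.12 on CBP-deleted arrays, 2.95 ± 0.32 on p300-deleted arrays and 9.60 ± 0.14 on controls (mean log2 value, SD, n = 3 each). It lay below the lower quartile of all probe sets on all 6 arrays of the deleted groups. The Foxp3 probe set thus goes against the label Treg in those groups, but other Treg genes did not share its fall. Ctla4 read 11.23 to 11.34 on CBP-deleted, 11.03 to 11.07 on p300-deleted and 10.46 to 10.94 on control arrays. Tnfrsf18 read 10.93 to 10.98, 11.07 to 11.22 and 11.05 to 11.53 in that order, lower on CBP-deleted arrays than on controls. Ikzf2 overlapped between the groups. The cause of the Foxp3 reading was not tested. Crebbp, the CBP gene, had mean log2 values of 7.20 ± 0.13 in CBP-deleted cells and 7.53 ± 0.16 in controls (SD, n = 3 each; limma log2 fold change -0.33, adjusted p = 0.123). Ep300, the p300 gene, is not analysed here. Whether either probe set reads the deleted part is not given in the sources used here.

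The 10 genes are placed in the genome by the RefSeq annotation of the build GRCm38.p6, and promoter windows of 300 bases, 250 before to 50 after the annotated start of transcription, were found for 9 of them, in 11 windows. Windows were searched on both strands for the GATA letters AGATAA or AGATAG, or else TGATAA or TGATAG, the core that GATA factors such as GATA2 bind. Of all 32544 promoter windows, 29.64% held at least 1 of these. Among the genes, 6 of the 9 held one: Fcer1a, Mcpt4, Cma1, Cpa3 and Hdc had 1 match each and Ms4a2 had 3, while the windows of Mcpt8, Kit and Gata2 had 0. The 5 windows of genes that rose in p300-deleted cells and had an entry are shown first, to set their starts side by side, and that of Ms4a2, the second IgE receptor chain, follows as the one with most matches among genes that did not pass. Capitals mark the GATA letters, as read on the strand of the gene. All 6 lie on the minus strand, at chr14:56085148-56085447 (Mcpt8), chr14:56062261-56062560 (Mcpt4), chr14:55944626-55944925 (Cma1), chr1:173227180-173227479 (Fcer1a), chr3:20242132-20242431 (Cpa3) and chr19:11623670-11623969 (Ms4a2).
Mcpt8: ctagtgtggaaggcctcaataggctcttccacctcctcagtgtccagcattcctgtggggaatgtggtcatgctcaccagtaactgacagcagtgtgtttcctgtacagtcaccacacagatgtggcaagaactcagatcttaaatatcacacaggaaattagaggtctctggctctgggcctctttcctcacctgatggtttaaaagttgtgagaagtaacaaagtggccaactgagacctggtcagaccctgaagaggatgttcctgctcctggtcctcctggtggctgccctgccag
Mcpt4: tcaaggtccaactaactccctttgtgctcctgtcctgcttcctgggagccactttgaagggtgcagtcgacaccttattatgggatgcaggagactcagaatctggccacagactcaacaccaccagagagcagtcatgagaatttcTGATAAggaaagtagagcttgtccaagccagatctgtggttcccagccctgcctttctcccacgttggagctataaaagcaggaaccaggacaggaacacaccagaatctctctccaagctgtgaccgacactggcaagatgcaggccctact
Cma1: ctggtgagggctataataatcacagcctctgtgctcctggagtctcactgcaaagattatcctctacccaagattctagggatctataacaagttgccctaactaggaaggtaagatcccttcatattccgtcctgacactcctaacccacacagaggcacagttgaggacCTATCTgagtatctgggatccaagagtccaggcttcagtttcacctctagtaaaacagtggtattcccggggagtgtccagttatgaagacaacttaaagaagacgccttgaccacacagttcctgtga
Fcer1a: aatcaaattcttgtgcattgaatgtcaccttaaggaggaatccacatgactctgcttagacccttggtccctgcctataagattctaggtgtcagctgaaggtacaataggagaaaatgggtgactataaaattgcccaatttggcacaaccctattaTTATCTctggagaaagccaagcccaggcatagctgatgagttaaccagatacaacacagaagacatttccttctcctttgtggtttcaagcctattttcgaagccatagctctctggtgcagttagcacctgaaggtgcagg
Cpa3: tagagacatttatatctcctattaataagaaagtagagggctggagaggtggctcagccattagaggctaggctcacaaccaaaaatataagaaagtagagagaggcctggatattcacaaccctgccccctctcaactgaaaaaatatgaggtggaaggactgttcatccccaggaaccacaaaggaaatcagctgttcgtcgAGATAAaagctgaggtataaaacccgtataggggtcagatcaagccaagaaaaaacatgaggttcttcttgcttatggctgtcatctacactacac
Ms4a2: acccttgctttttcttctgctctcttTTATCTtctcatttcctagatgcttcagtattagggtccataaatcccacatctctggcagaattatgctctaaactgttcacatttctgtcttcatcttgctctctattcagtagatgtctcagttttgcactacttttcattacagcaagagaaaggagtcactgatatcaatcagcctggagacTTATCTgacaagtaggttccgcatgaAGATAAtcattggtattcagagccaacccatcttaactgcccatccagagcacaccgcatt

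In these windows the match began 103 bases before the start in Mcpt4, 79 in Cma1, 92 in Fcer1a and 46 in Cpa3. Ms4a2 had matches 224, 37 and 11 bases before its start, and Hdc had one at 221. The E-box letters CATGTG or else CACGTG stood in the Fcer1a window alone of the 9 genes, 208 bases before the start, and in 20.48% of all windows. The letters TGACG, the core bound by CREB, to which CBP and p300 are coactivators, occurred in 20.91% of all windows and in 0 of the 11. TTCNNNGAA, the letters bound by STAT5, were in 8.33% of all windows and also in 0 of the 11. A match is a description of the letters and not of a binding site, and a window without one says only that those letters are not in it.

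In p300-deleted cells 6 of the 10 genes were higher than in controls and passed the test over all genes, where 2.02% of all genes were called higher. They were the proteases Mcpt8, Cma1, Mcpt4, Cpa3 and Tpsb2 and the IgE receptor chain Fcer1a, with fold changes between 2.05 and 5.42. The other 4, Gata2, Kit, Ms4a2 and Hdc, did not pass, and 0 were called lower, where 2.04% of all genes were. In CBP-deleted cells 0 of the 10 passed against control, where 2.14% of all genes were called higher and 2.79% lower. These are bulk samples, in which more cells of a type and more RNA per cell cannot be told apart, nor can fewer cells and less RNA. The array's 18S ribosomal RNA control probe sets averaged at least 7.39 on each CBP-deleted array, 7.88, 9.62 and 8.07 on p300-deleted arrays and 5.82, 6.20 and 8.88 on controls (log2), higher on the deleted arrays than on 2 of the 3 controls, and their part in the results was not tested. Values are log2 RMA summaries, in which dim probe sets understate a fold change. No probe's level is set against another's.

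**Figure D1:**
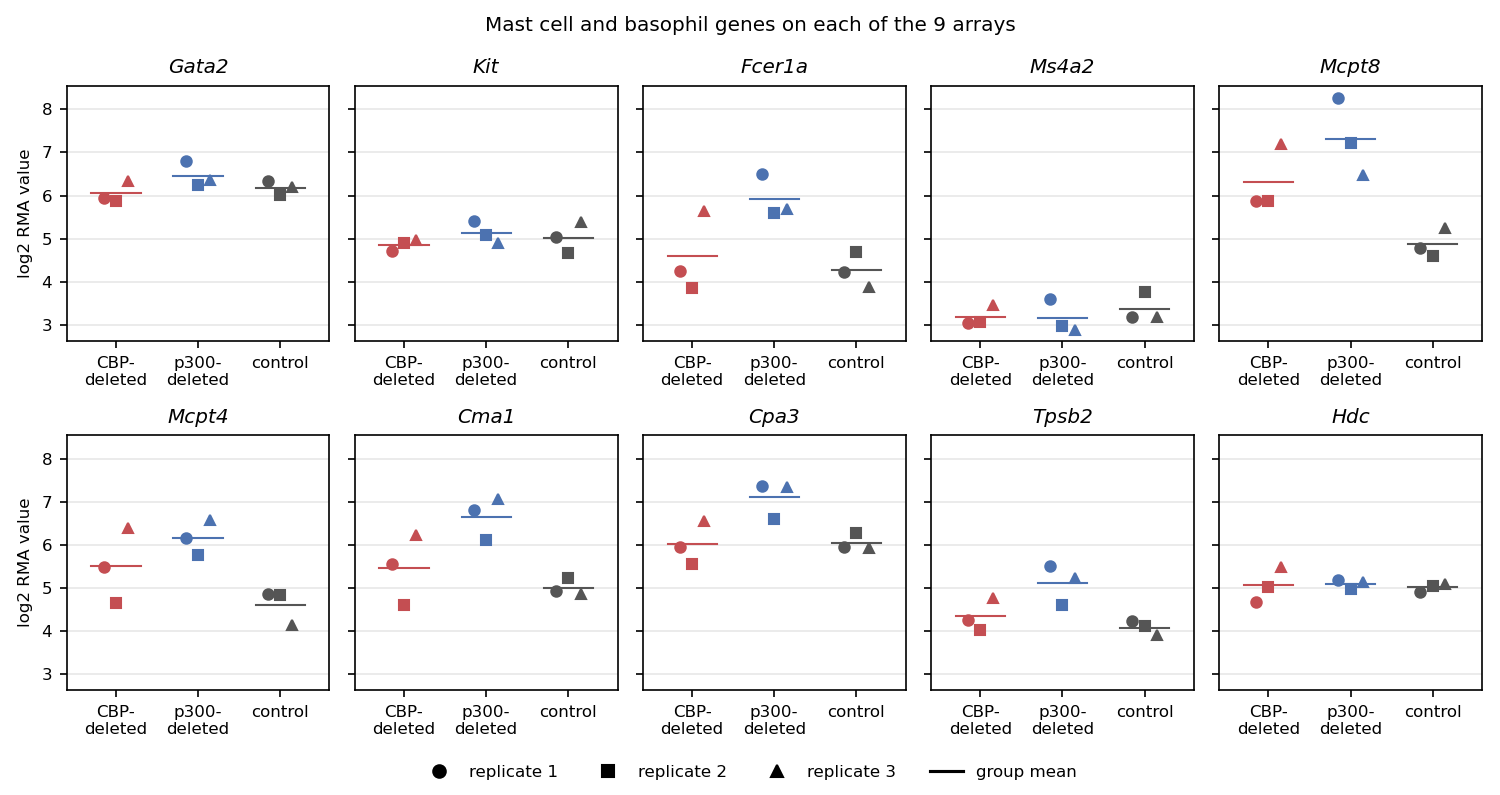
Log2 RMA value (vertical axis) of each of the 10 genes on the 3 CBP-deleted, 3 p300-deleted and 3 control arrays. Symbols mark the replicates and lines the group means. In Mcpt8 all p300-deleted arrays, at 6.47 to 8.27, lie above the control arrays, at 4.59 to 5.25.

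Gata2 and Kit, which act in the lineage before the granule is filled, come first. Gata2 had log2 values of 5.94, 5.88 and 6.34 in CBP-deleted cells, 6.80, 6.23 and 6.35 in p300-deleted cells and 6.33, 6.02 and 6.19 in controls. Among these the p300-deleted replicate 1 was the highest, and the groups overlapped. The log2 fold change was 0.28 ± 0.17 (SE) for p300-deleted against control (limma adjusted p = 0.422) and -0.12 ± 0.17 for CBP-deleted against control (adjusted p = 0.733). A second Gata2 probe set gave 0.16 ± 0.15 and -0.08 ± 0.15 (SE), neither of which passed.

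Kit encodes the receptor of stem cell factor, which mast cells need for survival. Its log2 values were 4.70, 4.89 and 4.97 in CBP-deleted cells, 5.40, 5.08 and 4.90 in p300-deleted cells and 5.03, 4.67 and 5.38 in controls, so that all groups overlapped. The log2 fold change was 0.10 for p300-deleted against control (limma adjusted p = 0.838) and -0.17 for CBP-deleted against control (adjusted p = 0.660). A second Kit probe set lay between 3.13 and 3.45 on all 9 arrays, below the lower quartile on 6 of them.

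The IgE receptor of mast cells and basophils has an α chain, Fcer1a, that binds IgE, a β chain, Ms4a2, and a γ chain, Fcer1g, that signals and is shared with other Fc receptors. Fcer1a had log2 values of 6.50, 5.59 and 5.69 in p300-deleted cells, against 4.23, 4.68 and 3.88 in controls. Every p300-deleted array lay above every control array. Its log2 fold change was 1.66 ± 0.40 (SE; 95% interval 0.80 to 2.53; limma adjusted p = 0.0399), a fold of 3.17. The CBP-deleted arrays read 4.25, 3.86 and 5.65, with replicate 3 at the level of the p300-deleted arrays and the others at that of the controls. Against control that gave 0.32 ± 0.40 (SE; adjusted p = 0.694).

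The β chain did not move with the α chain between groups. Ms4a2 had log2 values of 3.04, 3.07 and 3.46 in CBP-deleted cells, 3.61, 2.97 and 2.89 in p300-deleted cells and 3.18, 3.77 and 3.17 in controls, all overlapping. On 6 of the 9 arrays it was below the lower quartile of the probe sets, where differences are understated. Its log2 fold change was -0.22 for p300-deleted against control (limma adjusted p = 0.652) and -0.18 for CBP-deleted against control (adjusted p = 0.674). Fcer1g, measured among 12 genes of IgE receptor signalling, had a log2 fold change of 0.31 (adjusted p = 0.578) in p300-deleted against control cells.

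Mcpt8, a serine protease of mouse basophils, had the largest difference of the 10. It had log2 values of 8.27, 7.21 and 6.47 in p300-deleted cells, against 4.79, 4.59 and 5.25 in controls. All p300-deleted arrays were above all controls. The log2 fold change was 2.44 ± 0.42 (SE; 95% interval 1.51 to 3.37; limma adjusted p = 0.0112), a fold of 5.42, and placed Mcpt8 4th of 12393 genes ordered by fold change. In CBP-deleted cells Mcpt8 read 5.88, 5.88 and 7.20, also above every control array. Its log2 fold change there was 1.44 ± 0.42 (SE; 95% interval 0.51 to 2.37), which ranked 10th of 12393 but did not pass after adjustment (limma adjusted p = 0.0782).

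Mcpt4 and Cma1, the latter also called Mcpt5, encode chymases of mouse mast cells. Mcpt4 had log2 values of 6.16, 5.76 and 6.58 in p300-deleted cells, against 4.86, 4.84 and 4.13 in controls, without overlap. The log2 fold change was 1.56 ± 0.37 (SE; limma adjusted p = 0.0385), a fold of 2.94. Its CBP-deleted arrays read 5.49, 4.65 and 6.40, reaching into both other groups, and the log2 fold change against control was 0.91 ± 0.37 (adjusted p = 0.186).

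Cma1 had log2 values of 6.80, 6.11 and 7.05 in p300-deleted cells, against 4.93, 5.23 and 4.86 in controls. Again no array of one group reached the other. That is a log2 fold change of 1.65 ± 0.34 (SE; limma adjusted p = 0.0229), a fold of 3.14. CBP-deleted cells gave 5.55, 4.61 and 6.23, from below the lowest control to above the highest, and 0.46 ± 0.34 against control (adjusted p = 0.492).

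Cpa3 encodes the granule carboxypeptidase A3 of mast cells, also found in basophils. Its log2 values were 7.37, 6.59 and 7.33 in p300-deleted cells, against 5.96, 6.27 and 5.91 in controls, with every p300-deleted array higher. The log2 fold change was 1.05 ± 0.25 (SE; 95% interval 0.50 to 1.60; limma adjusted p = 0.0417), a fold of 2.07. The CBP-deleted arrays read 5.94, 5.55 and 6.55 and overlapped the controls, with a log2 fold change of -0.03 ± 0.25 (adjusted p = 0.957).

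Tpsb2 encodes a tryptase that mast cells keep in their granules, and its sequence is close to that of Tpsab1, so its probe sets may read both. The probe set used for Tpsab1 read 4.19, 4.17 and 4.30 in p300-deleted cells and 4.35, 4.02 and 4.12 in controls, which overlapped. Tpsb2 had log2 values of 5.50, 4.61 and 5.23 in p300-deleted cells, against 4.23, 4.11 and 3.89 in controls. For Tpsb2 these groups did not overlap, and the log2 fold change was 1.04 ± 0.23 (SE; limma adjusted p = 0.0301), a fold of 2.05. In CBP-deleted cells Tpsb2 read 4.24, 4.03 and 4.77 (log2 fold change 0.27, adjusted p = 0.559). A second Tpsb2 probe set was below the lower quartile on all 9 arrays, at 2.56 to 2.81 in p300-deleted cells and 2.33 to 2.58 in controls, and gave 0.24 ± 0.10 (SE; adjusted p = 0.233 over every probe set).

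Hdc, the enzyme that makes histamine, completes the set. It had log2 values of 4.66, 5.02 and 5.49 in CBP-deleted cells, 5.19, 4.96 and 5.14 in p300-deleted cells and 4.90, 5.03 and 5.09 in controls, which overlapped. Against control its log2 fold change was 0.09 (limma adjusted p = 0.858) for p300-deleted and 0.05 (adjusted p = 0.919) for CBP-deleted cells. A second Hdc probe set gave 0.23 ± 0.27 and 0.03 ± 0.27 (SE), and neither passed.

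Over the 10 genes the median log2 fold change for p300-deleted against control was 1.04, beside -0.02 over all genes. In 6 of the 10 the p300-deleted arrays lay wholly above the controls, as they did in 8.76% of all genes. Leaving out 1 array moved the number called from 6 to 1 without p300-deleted replicate 1, p300-deleted replicate 3 or control replicate 1. It was 2 without CBP-deleted replicate 1 or control replicate 3, and 3 without p300-deleted replicate 2. With all probe sets of a gene averaged, or each tested on its own, the called genes were Mcpt8, Cma1 and Tpsb2. The fold changes of the 6 were above 0 under every alternative run. For CBP-deleted against control the median over the 10 was 0.16, beside -0.03 over all genes. Mcpt8 passed there with array weights and without p300-deleted replicate 1 (limma adjusted p = 0.0396 and 0.0424, range over the alternatives 0.0396 to 0.262). With array weights 1755 of the 12393 genes were called in that comparison, against 611 in the main fit.

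**Figure D2:**
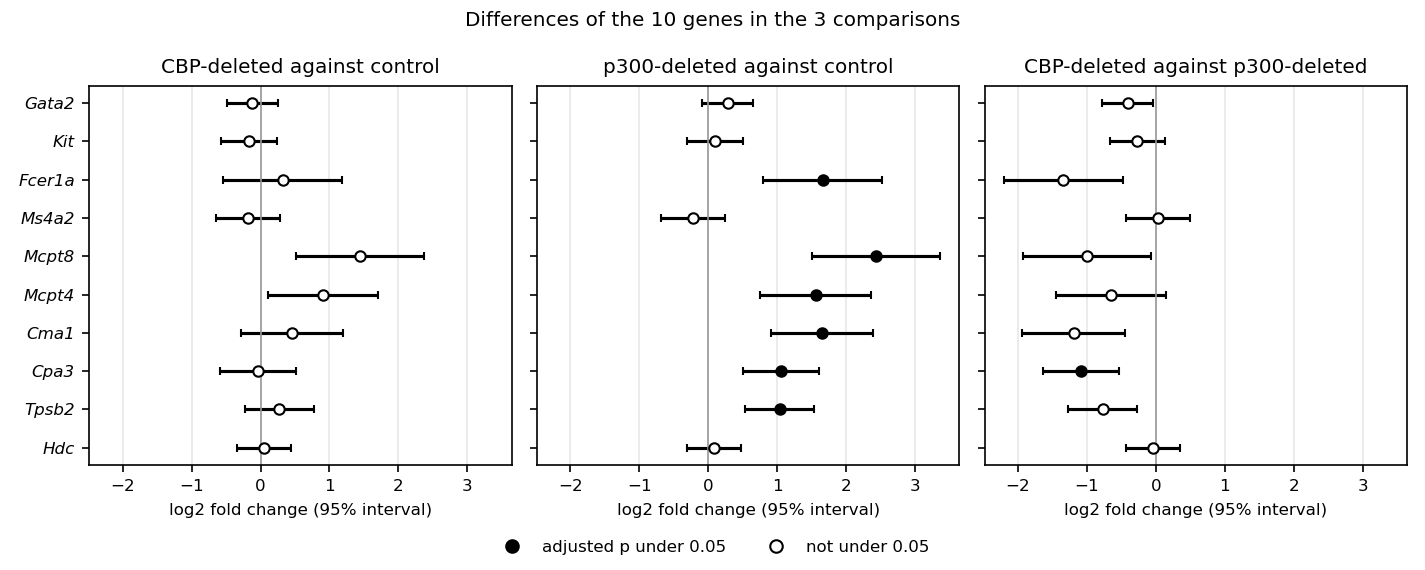
Log2 fold change with its 95% interval (horizontal axis) of the 10 genes in each of the 3 comparisons from limma. Filled points have an adjusted p under 0.05. There are 6 filled points for p300-deleted against control, 0 for CBP-deleted against control and 1, Cpa3, between the deletions.

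The deletions were also compared directly. Cpa3 was lower in CBP-deleted than in p300-deleted cells, by a log2 fold change of -1.08 ± 0.25 (SE; 95% interval -1.64 to -0.53; limma adjusted p = 0.0285), and its arrays, at 5.55 to 6.55 and 6.59 to 7.37, did not overlap, as in 14.4% of all genes with CBP-deleted lower. It was the 1 gene of the 10 called, where 5.20% of all genes were called in either direction and 2.01% were called lower. The values of Cma1 (-1.19, adjusted p = 0.0686), Fcer1a (-1.34, adjusted p = 0.0788) and Tpsb2 (-0.77, adjusted p = 0.0828) did not pass. Mcpt8 had a log2 fold change of -0.999 (adjusted p = 0.231), and the deletions were not shown to differ in it. The remaining values were -0.41 for Gata2, -0.65 for Mcpt4, -0.27 for Kit, -0.04 for Hdc and 0.03 for Ms4a2, with adjusted p between 0.221 and 0.959. Over the 10 genes the median was -0.71, beside -0.02 over all genes. The number called turned on single arrays. It was 0 without CBP-deleted replicate 1 or 2 or without p300-deleted replicate 1 or 3, and 2 without p300-deleted replicate 2. It was 4 without CBP-deleted replicate 3, when Fcer1a (-1.87, adjusted p = 0.00894), Cma1 (-1.58, adjusted p = 0.0223) and Tpsb2 passed beside Cpa3.

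Within each deleted group 1 array stood highest for most of the genes, and replicate 2 stood lowest for 7 of the 10. The mean log2 value over the 10 genes was 4.97, 4.74 and 5.70 on the CBP-deleted arrays, 6.16, 5.51 and 5.76 on the p300-deleted arrays and 4.84, 4.92 and 4.78 on the controls. CBP-deleted replicate 3 was the highest of its group in all 10 genes. Replicate 1 of the p300-deleted group was the highest of its group in 8 of the 10, the exceptions being Mcpt4 and Cma1. The lowest p300-deleted array was replicate 3 for Mcpt8, Kit and Ms4a2 and replicate 2 for the other 7. The lowest CBP-deleted array was replicate 1 for Kit, Ms4a2 and Hdc and replicate 2 for the other 7. These means are a description and carry no test.

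Over the 9 arrays the Pearson correlation between pairs of the 10 genes was positive in 43 of 45 pairs, with a median of 0.53, and 15 pairs passed an exact permutation test (two-sided, adjusted over the 45). No such count was made over pairs of other genes. Whether these pairs stand out from those of all genes was therefore not tested. The closest pair was Cma1 and Cpa3, with r = 0.95 and Spearman's rho = 0.92 (exact permutation p = 0.000165, adjusted p = 0.00269), and r = 0.90 without the 2 arrays farthest from the median of Cma1. Mcpt4 and Cma1 had r = 0.94 and rho = 0.95 (exact permutation p = 0.000576, adjusted p = 0.00432), and 0.93 without 2 arrays. Fcer1a and Tpsb2 had r = 0.94 and rho = 0.93 (exact permutation p = 0.000179, adjusted p = 0.00269), and likewise 0.93 without 2 arrays. Mcpt8, the basophil protease, had r = 0.83 with Fcer1a, and rho = 0.70 (exact permutation p = 0.00679, adjusted p = 0.0263). With Mcpt4 it had r = 0.75 and rho = 0.72 (exact permutation p = 0.0222, adjusted p = 0.0587), which did not pass. Kit, Ms4a2 and Hdc were in 0 of the pairs that passed.

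Differences between the groups enter these values, so the deviations from the group means were correlated as well. Then 42 of 45 pairs were positive, with a median r of 0.61, and 0 passed (smallest exact permutation p = 0.0139, adjusted p = 0.174). Pairs of other genes were not counted here either. Values were permuted within groups here, which leaves few orderings. A pair on its own could therefore not pass after adjustment over the 45, whatever its r. No conclusion is drawn from the lack of pairs that passed. Cma1 and Cpa3 had r = 0.95 and Mcpt4 and Cma1 r = 0.93 within groups. Mcpt8 had r = 0.69 with Fcer1a and 0.83 with Gata2, but 0.23 with Mcpt4 and 0.32 with Cma1. Fcer1a and Ms4a2, the chains of one receptor, had r = 0.26 over the arrays and 0.81 within groups.

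**Figure D3:**
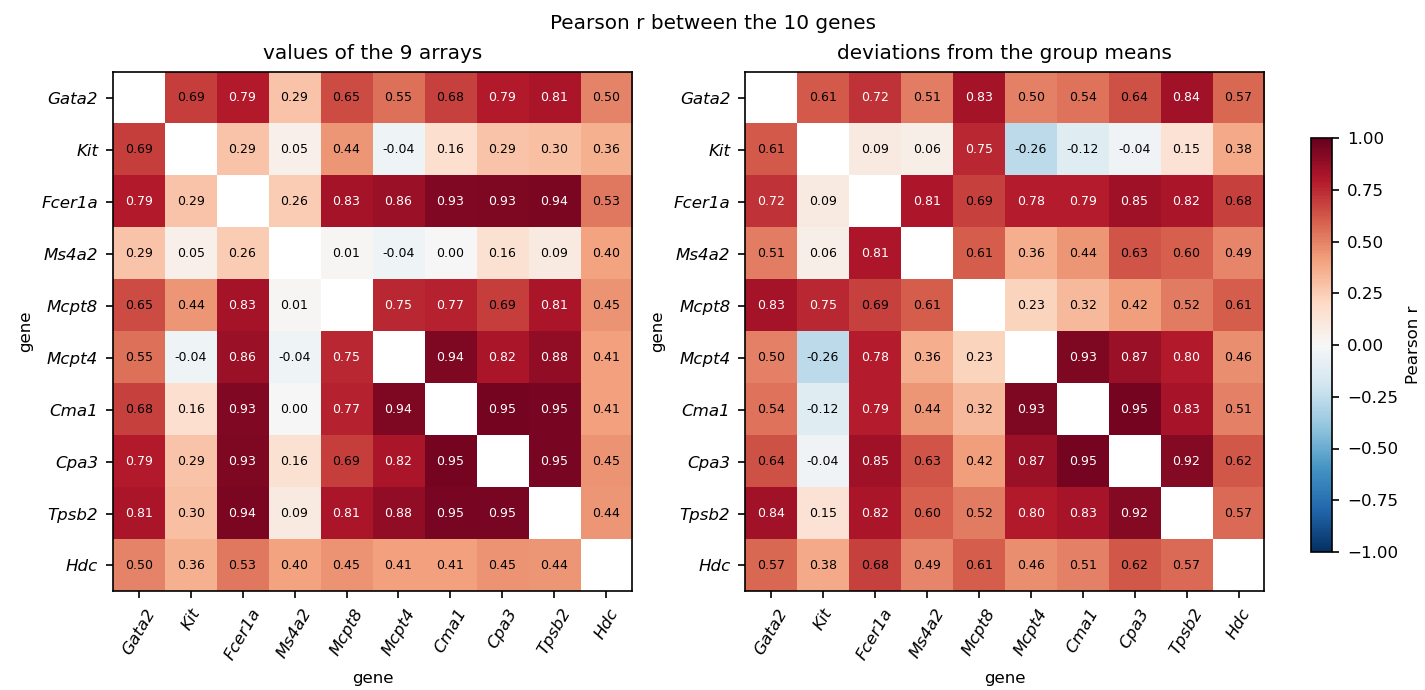
Pearson r between each pair of the 10 genes, over the values of the 9 arrays (left) and over the deviations from the group means (right), with r from -1 in blue to 1 in red. Cma1 and Cpa3 stand at 0.95 in both, and Mcpt8 and Mcpt4 at 0.75 on the left and 0.23 on the right.

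Of 12116 further genes compared over the 9 arrays, those closest to Mcpt8 were Tlr2, Kcnj10 and Cyb5r3, each with r = 0.96. Nearest to Fcer1a were Pou2af1, Ckap4 and Creld2, each with r = 0.94. For Mcpt4 they were Nucb2, Dmac2l and Acadsb (r = 0.90 to 0.91), and for Cma1 Zcchc14, Nucb2 and Rims2 (r = 0.91 to 0.95). Cpa3 stood nearest to Dnase1l1, Ckap4 and Cd209e (r = 0.93 to 0.94), and Tpsb2 to Edem1, Cd209e and Nucb2 (r = 0.95 to 0.98). They are given as a description, since the highest of so many correlations are large by selection.

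Mcpt8, Mcpt4 and Cma1 lie in the mast cell protease and granzyme locus on chromosome 14, a row of related serine protease genes of which the RefSeq annotation of GRCm38.p6 orders 15. Of these 13 were measured, and 4 rose in p300-deleted cells: the 3 above and Ctsg, the gene of cathepsin G, a protease of neutrophils and mast cells. Ctsg had log2 values of 7.17, 5.57 and 5.65 in p300-deleted cells, against 4.17, 4.48 and 4.80 in controls (log2 fold change 1.64 ± 0.37, SE; limma adjusted p = 0.0325). Those 3 arrays lay above all controls. Mcpt8 sits next to Ctsg and Mcpt4, while Cma1 is at the far end of the row. Mcpt1, a chymase of mucosal mast cells, had a log2 fold change of 0.45 (adjusted p = 0.0522) and Mcpt2, its close relative, 0.22 (adjusted p = 0.579). The 6 granzyme genes from Gzme to Gzmc lay between -0.13 and 0.13, with 0 passing, but all except Gzmc were below the lower quartile of the probe sets on all 9 arrays, where a difference is not readily measured. Mcpt1 was below it on 7 of the 9. Gzmb, the cytotoxic granzyme of T and natural killer cells, had -1.09 (adjusted p = 0.130). Cma2 and Mcpt9 are not analysed here. In CBP-deleted against control cells 0 of the 13 passed, where 2.14% of all genes were called higher and 2.79% lower. The proteases of this row are alike in sequence, so reads of one probe set by another gene's RNA cannot be told apart here.

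**Figure D4:**
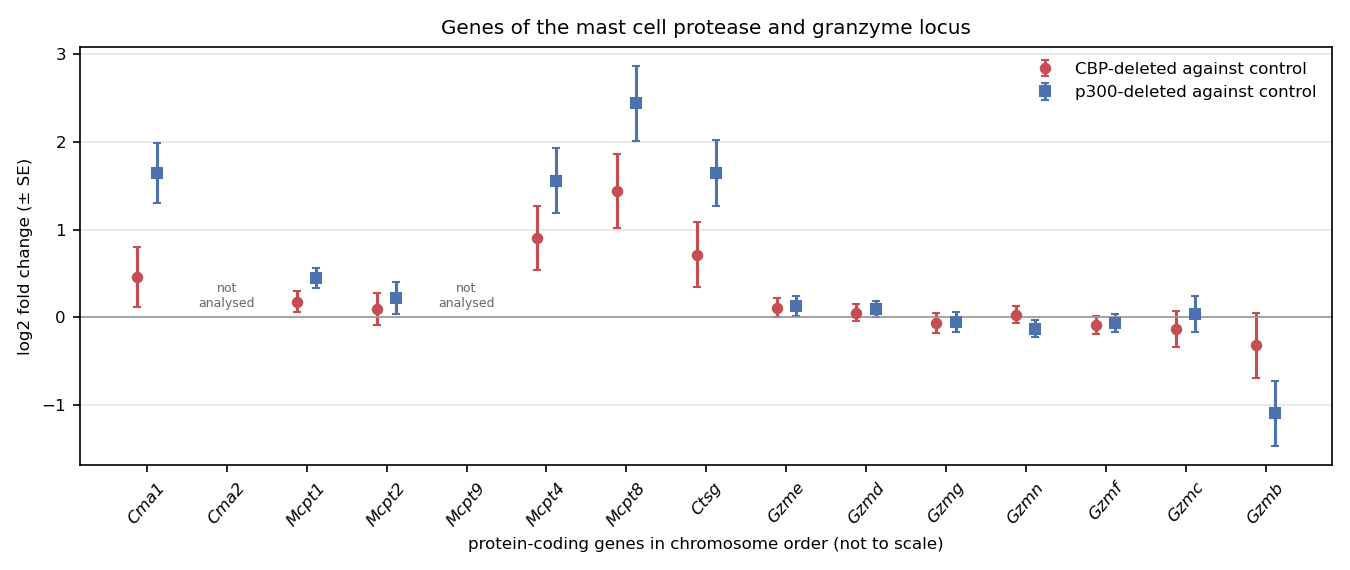
Log2 fold change (± SE, vertical axis) of CBP-deleted and p300-deleted against control cells for the protein-coding genes of the protease row on chromosome 14, in their order. Cma1, Mcpt4, Mcpt8 and Ctsg are the 4 called for p300-deleted cells, and the 6 granzymes from Gzme to Gzmc lie between -0.13 and 0.13, with all but Gzmc below the lower quartile of the probe sets on all 9 arrays.

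Other genes of mast cells and basophils were read from lists set by known function. Like the lists of other cells below, they were drawn up with earlier results of these data known, so they are not blind to them. Over all genes, 2.02% were called higher and 2.04% lower in p300-deleted cells. For CBP-deleted cells these shares were 2.14% and 2.79%. Of 9 further granule proteins 1 passed in p300-deleted cells, Ctsg, with a median log2 fold change of 0.06. Among 12 IgE receptor signalling genes 0 passed in either deletion, with medians of -0.03 for p300-deleted and -0.21 for CBP-deleted cells. The largest values were 0.50 for Lat2 in p300-deleted cells (limma adjusted p = 0.229) and -0.39 for Plcg2 in CBP-deleted cells (adjusted p = 0.240). Of 13 further receptors 0 passed, and of 8 type 2 cytokines 0 passed, with Il4 at -0.75 in CBP-deleted cells (adjusted p = 0.226). Of 8 genes of lipid and amine mediators, Ddc, which makes dopamine and serotonin, fell by 0.61 on the log2 scale in CBP-deleted cells (adjusted p = 0.0249), and 0 passed in p300-deleted cells. Of 15 transcription factors of these lineages 2 fell in CBP-deleted cells, Lyl1 by 0.82 (adjusted p = 0.0253) and Cebpb by 0.81 (adjusted p = 0.0196), and 0 passed in p300-deleted cells. Across these lists Ctsg was the 1 gene called in p300-deleted cells.

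Markers of other cells moved on the same arrays. Beside the counts that follow, 2.02% of all genes were called higher and 2.04% lower in p300-deleted cells. In CBP-deleted cells 2.14% were called higher and 2.79% lower. Of 14 neutrophil markers 2 rose in p300-deleted cells, Slpi with a log2 fold change of 2.81 (limma adjusted p = 0.00918) and Camp with 2.13 (adjusted p = 0.0335), and in CBP-deleted cells 0 rose and Mmp9 fell. In p300-deleted cells the median over the 14 was 1.35, above the 1.04 of the 10 genes. Of the 14, 9 lay wholly above the controls, as did 8.76% of all genes. In CBP-deleted cells their median was 0.85. The mean over the 14 spanned 5.11 to 6.67 on the CBP-deleted arrays, 5.36 to 6.92 on the p300-deleted arrays and 4.58 to 4.98 on the controls. CBP-deleted replicate 3 and p300-deleted replicate 1 were the highest of their groups, as for the 10 genes. The same held for 12 of the 17 other lists, among them the monocyte, plasma cell, eosinophil, dendritic cell, IgE receptor signalling and type 2 cytokine lists. The 12 include the protease locus list, which itself holds Mcpt8, Mcpt4 and Cma1. It did not hold for the T cell and Treg, B cell, natural killer, innate lymphoid type 2 and progenitor and erythroid lists. Of 7 plasma cell markers 5 rose in p300-deleted cells, led by Igha (2.09, adjusted p = 0.00048), and 1 in CBP-deleted cells. Their mean spanned 8.72 to 8.99 on CBP-deleted, 9.37 to 9.75 on p300-deleted and 8.54 to 8.73 on control arrays. Of 6 eosinophil markers 1 rose in p300-deleted cells, Prg2, the major basic protein gene, which basophils also express (1.20, adjusted p = 0.0309), while Epx, the eosinophil peroxidase gene, was below the lower quartile on 8 of the 9 arrays. Il5ra went the other way, at 3.29 to 3.65 on p300-deleted and 3.99 to 4.16 on control arrays (log2 fold change -0.53), and was not called. The median over the 6 was -0.003. The eosinophil mean spanned 3.18 to 3.40 on CBP-deleted, 3.53 to 3.85 on p300-deleted and 3.44 to 3.73 on control arrays. Of 5 natural killer markers 1 rose in p300-deleted cells, Ncr1 (1.43, adjusted p = 0.0425), with a mean of 6.23 to 6.72 on CBP-deleted, 6.91 to 7.16 on p300-deleted and 6.27 to 6.56 on control arrays. Of 7 B cell markers 3 fell in CBP-deleted cells, led by Cd79a (-1.03, adjusted p = 0.0272), and 0 passed in p300-deleted cells, with means of 5.40 to 5.90 on CBP-deleted, 5.64 to 6.33 on p300-deleted and 6.11 to 6.42 on control arrays. Of 9 monocyte and macrophage markers 0 passed. Their mean spanned 4.73 to 5.48 on CBP-deleted, 4.90 to 5.74 on p300-deleted and 4.64 to 5.17 on control arrays. The part of these cells in the results on the 10 genes was not tested.

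**Figure D5:**
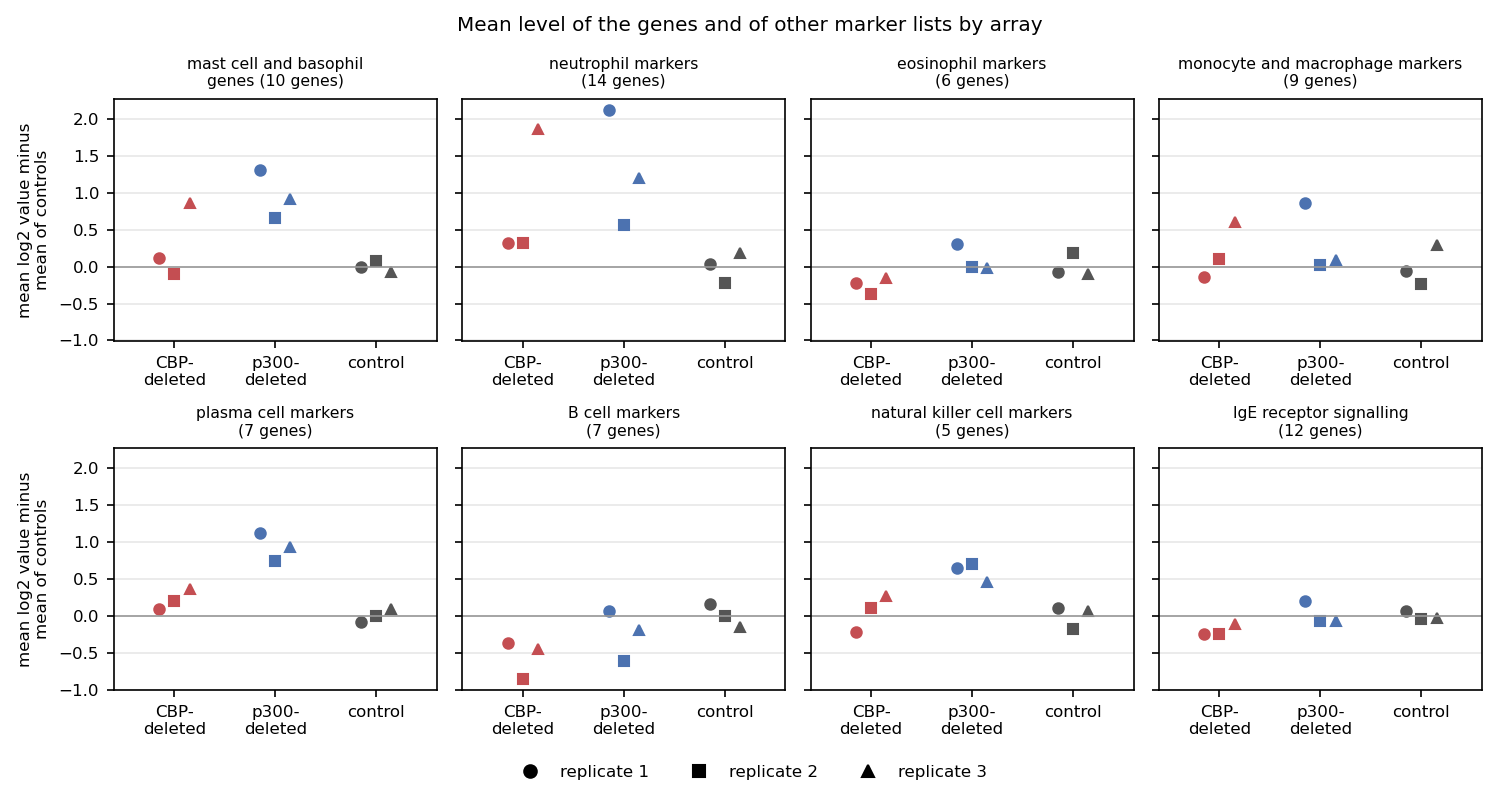
Mean log2 value of each list minus its mean over the controls (vertical axis), on each CBP-deleted, p300-deleted and control array. Symbols mark the replicates. CBP-deleted replicate 3 and p300-deleted replicate 1 are the highest of their groups in the mast cell and basophil genes, where the means are 5.70 and 6.16, and in the neutrophil markers, where they are 6.67 and 6.92. They are also the highest in the eosinophil, monocyte, plasma cell and IgE receptor signalling panels.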

How the data were processed

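Transcripts were measured on 9 Affymetrix arrays, 3 each of CBP-deleted, p300-deleted and control CD4+CD25+ cells. The deposited values are log2 intensities, 1 per probe set and array, summarised by the authors with RMA, per the submitters' processing notes, with version and settings not given in the sources used here. They were used as deposited. They carry no detection calls, and precision is limited by how few arrays there are.

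After 64 control probe sets were left out, 22626 of 22690 remained, of which 20380 had 1 gene symbol in the platform annotation, 691 several and 1555 none. Each gene was read by its probe set with the highest mean over all arrays, giving 12393 genes. Names and gene order came from RefSeq for GRCm38.p6. Differences were fitted with limma 3.58.1 in R 4.3.3 on all 9 arrays (1 mean per group, 6 residual degrees of freedom, trended empirical Bayes), two-sided, with Benjamini-Hochberg adjustment over all genes and a threshold of 0.05. The procedure was tested on simulated data. The lower quartile of all probe sets, used to call a value low, was 3.34 to 3.41 by array.

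The 10 genes and the lists were chosen with earlier results of these data known. Named besides the 10 are up to 4 genes past the threshold per list and comparison, or else up to 2 of the largest, the 3 genes closest in correlation to each of the 10 that passed, and checks of the labels. The genes of the protease row outside this rule, and Cd3d, Cd3e, Ctla4, Tnfrsf18, Ikzf2, Tpsab1, Il5ra and Epx, were chosen after their values were seen. The alternatives changed the probe set rule, filter, scaling, variance model, arrays fitted and replicate block, and left out each array.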

Additional observations from a re-analysis of the deposited data

Results flagged for a closer look

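The test of the difference between the deletions themselves passed for Cpa3. The log2 fold change of CBP-deleted against p300-deleted cells was -1.08 ± 0.25 (SE; limma adjusted p = 0.0285), with mean log2 values of 6.01 ± 0.50 on CBP-deleted arrays and 7.10 ± 0.44 on p300-deleted arrays (SD, n = 3 each). Each deletion is set against the same 3 control arrays, in which Cpa3 stood at 6.05 ± 0.20.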

How the results depend on the processing

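The 6 genes called in p300-deleted against control cells kept their sign under all alternatives run, with Mcpt8 called in 17 of 18 (adjusted p 0.00560 to 0.0559) and Fcer1a in 7 of 17. The number of the 10 called, 6, was 3 with the mean of all probe sets, 3 with every probe set on its own, 3 with dim genes left out, where fewer of the 10 were tested, and 1 to 6 without 1 array. For CBP-deleted against control it was 1 with array weights and 0 to 1 without 1 array. Between the deletions it was 4 with array weights and 0 to 4 without 1 array. The count of all genes called in CBP-deleted against control cells, 611, was 1755 with array weights, 261 with only the groups compared and 85 to 1131 without 1 array. In p300-deleted against control cells it was 503, against 1028, 165 and 65 to 854, and between the deletions 645, against 1467, 1386 and 212 to 1041. Correlated pairs numbered 15, and 10 to 16 without 1 array. The cause was not tested.

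With the replicate block the counts were 364 and 326 genes against control and 524 between the deletions, and 5 of the 10 genes were called in p300-deleted cells, Fcer1a being lost (adjusted p = 0.0666). The correlation of same-numbered deviations was over 0.1 in 2 of 9 pairs (-0.23 to 0.27). Differently numbered arrays were not set beside them, so whether the numbers pair the arrays cannot be told from these values.

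Signs turned only for differences that did not pass, and only without 1 array. In CBP-deleted against control cells, leaving out 1 array gave log2 fold changes of -0.30 to 0.20 for Cpa3, -0.21 to 0.69 for Fcer1a, -0.17 to 0.24 for Hdc, -0.32 to 0.015 for Ms4a2 and -0.34 to 0.0083 for Kit. In p300-deleted against control cells it gave -0.077 to 0.28 for Kit. Between the deletions it gave -0.26 to 0.16 for Hdc and -0.10 to 0.26 for Ms4a2.

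Limits of the arrays touch the dim genes most. Ms4a2 lay below the lower quartile on 6 of 9 arrays, and a difference there is understated.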
